A study of Mus musculus with 8 samples.

Results

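The nuclear tRNA that carries histidine, tRNA-His-GTG, was followed through its fragments in the small RNA of mature mouse sperm. Its members are the distinct sequences whose deposited annotation names this tRNA and no other RNA, with mitochondrial tRNAs left out. There were 278 such sequences of 5724730 distinct sequences in all, and together they held 48149 reads. A further sequence with 11 reads also names tRNA-Asp-GTC and was not counted. Sperm came from the cauda epididymis of male mice that had been given, at 8 weeks of age, a virus in the arcuate nucleus carrying a Cre-dependent excitatory receptor, hM3Dq fused to mCherry. All animals later received its ligand CNO without access to food, and sperm was collected 4 h afterwards. The activated group was Agrp Cre/+, so that AgRP neurons could express the receptor, and the control group was Agrp +/+, which had the virus and CNO but no Cre. Each group had 4 libraries, 1 per mouse, and neither group was left without CNO. Library totals were 14903635, 17489698, 14757501 and 9409491 reads in activated replicates 1 to 4, and 12421068, 23123740, 9297271 and 14348060 in control replicates 1 to 4.

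A tRNA is trimmed at both ends and then finished by enzymes. The enzyme Trnt1 adds the tail CCA, to which the amino acid is attached. Histidine tRNA is peculiar in gaining a further guanosine at its 5′ end, ahead of the first base that the gene encodes, which the guanylyltransferase Thg1l adds and by which histidyl-tRNA synthetase recognises its substrate. Cuts in the anticodon loop release long 5′ and 3′ fragments, and cuts in the T loop release shorter 3′ fragments that keep the tail. Sperm is known to be rich in 5′ fragments of a few tRNAs, part of which it receives from the epithelium of the epididymis.

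Positions are counted here from the first encoded base, so that the added guanosine stands at -1. Joining overlapping members gave a mature tRNA of 76 bases: 72 encoded bases, which is also the length of every RefSeq gene of this tRNA, the guanosine and the tail. RefSeq lists 10 such genes in the GRCm38 build, 3 on chromosome 2 between 122375494 and 122378039, 6 on chromosome 3 between 96410069 and 96500437, and 1 on chromosome 4 from 82619623 to 82619694. Fragments were not assigned to single genes. Of the 278 members, 259 lie within the joined sequence and hold 99.4% of the reads. The anticodon takes positions 34 to 36, the T loop 53 to 59, the 3′ strand of the T stem 60 to 64, and the tail ends at 75. The 5 fragments below are shown because the results turn on them: the commonest 5′ fragment, its counterpart without the added base, and the commonest 3′ fragments of 3 lengths. Capitals mark bases that the genes do not encode, the guanosine at -1 and the tail.
5′ fragment, -1 to 33: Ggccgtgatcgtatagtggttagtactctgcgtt
unlabelled 5′ fragment, 1 to 33: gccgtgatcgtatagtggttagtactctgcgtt
CCA fragment, 60 to 75: ccgagtcacggcaCCA
CCA fragment, 52 to 75: gttcgaatccgagtcacggcaCCA
CCA fragment, 54 to 75: tcgaatccgagtcacggcaCCA

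Most reads of tRNA-His in sperm came from its 3′ side. CCA ends, reads that reach the tail, made up 79.7% of all reads in 35 sequences, and reads without an end label 12.1% in 216 sequences. The 5′ ends made up 8.09% in 19 sequences, and 3′ ends without a tail only 0.0789%, which is 38 reads. Only 9.23% of the reads matched the genome, as the genes encode neither the tail nor the added guanosine. Of the 35 CCA end sequences, 3 with 182 reads did match it. None of the 5′ end sequences matched the genome, against 185 of the 216 sequences without a label.

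CCA ends were at 422, 339, 241 and 321 RPM (reads scaled to 1e6 reads of the library) in activated replicates 1 to 4. In control replicates 1 to 4 they were at 408, 307, 404 and 256 RPM. The groups overlapped throughout, with means of 331 ± 74.2 and 344 ± 75 RPM (SD, n = 4), and the ratio of activated to control was 0.963 (two-sided exact permutation test, p = 0.886, adjusted over the 4 end classes p = 0.886). A level per library cannot tell fewer sperm with such RNA from less of it in each.

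The 5′ ends were at 27.8, 20.2, 20.1 and 11.9 RPM in activated replicates 1 to 4, and at 39.7, 31.4, 131 and 19.7 RPM in control replicates 1 to 4. Control replicate 3 stood far above all other libraries, and control replicate 4 lay below 3 of the activated libraries, so that the groups overlapped. Means were 20.0 ± 6.48 and 55.4 ± 51 RPM (SD, n = 4) for activated and control, a ratio of 0.361 that did not pass the exact permutation test (p = 0.114, adjusted p = 0.457). Without control replicate 3 the ratio was 0.661. These values rest on 112 to 1217 reads per library. Reads without an end label gave a ratio of 0.687 (exact permutation p = 0.229, adjusted p = 0.457). All tRNA-His reads together had means of 394 ± 90.0 and 462 ± 140.6 RPM (SD, n = 4) in the activated and control groups, also within the spread of the libraries (exact permutation p = 0.4).

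**Figure D1:**
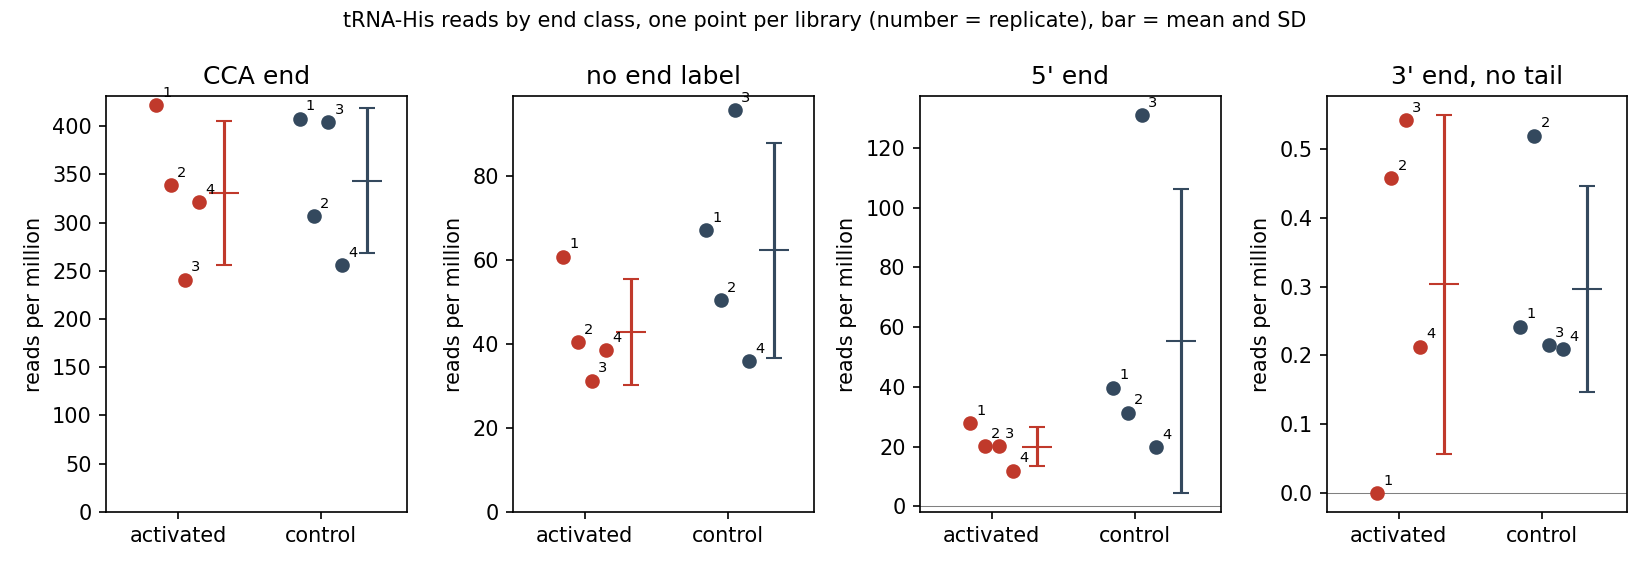
RPM of tRNA-His reads in the 4 end classes, with 1 point per library, its replicate number, and the mean with SD beside each group. The groups overlap in each panel, and control replicate 3, at 131 RPM, stands alone among the 5′ ends.

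The composition of tRNA-His differed from that of the other nuclear tRNAs summed together. CCA ends took 64.0 to 86.4% of tRNA-His reads and 22.7 to 31.4% of the reads of other nuclear tRNAs. Reads with the 5′ label took 3.2 to 20.8% of tRNA-His reads but 39.7 to 51.1% of the others. Both differences had the same direction in 8 of 8 libraries (exact sign-flip test over libraries, p = 0.00781, the smallest it can give). The 5′ label of tRNA-His leaves out the reads that start at position 1, 1661 in all, which count here as unlabelled. Among the 32 isoacceptors, the tRNAs of 1 anticodon, with at least 50 RPM of CCA ends, tRNA-Ile-AAT had the highest share of CCA ends in pooled reads, 96.1%. tRNA-Ser-TGA with 80.2% and tRNA-His with 79.7% followed, too close to rank given the spread of tRNA-His over libraries. Next came tRNA-Arg-TCT with 76.2%, tRNA-Met-CAT with 73.4%, tRNA-Phe-GAA with 73.3% and tRNA-Trp-CCA with 71.6%, and the lowest was tRNA-Cys-GCA with 1.21%. The sum of the other tRNAs is weighted to those with many reads, such as tRNA-Gly-GCC with a CCA share of 3.70%. A high CCA share is thus not particular to tRNA-His.

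Between groups, CCA ends held 82.6, 84.7, 82.2 and 86.4% of tRNA-His reads in activated replicates 1 to 4 and 79.2, 78.8, 64.0 and 82.1% in control replicates 1 to 4. All activated libraries lay above all control libraries, by a narrow margin at control replicate 4, and control replicate 3 lay far below the rest. The means of 84.0 ± 1.92 and 76.0 ± 8.13% (SD, n = 4) differed at the smallest p of the exact permutation test (0.0286), which became 0.0762 after adjustment over the 4 end classes. Without control replicate 3 the difference was 3.96 instead of 7.96 percentage points. Without control replicate 4 it was 9.98 points, with an adjusted p of 0.0381 in the exact permutation test. Among reads of at least 17 nt it was 13.8 points, but the groups then overlapped, at 67.4 to 78.8% in activated and 36.7 to 71.8% in control libraries (exact permutation p = 0.0857). This share was compared after the data had been seen. Other nuclear tRNAs had CCA shares of 29.8% in activated and 25.2% in control sperm (exact permutation p = 0.0571). The shift was therefore not shown to be particular to tRNA-His.

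The 5′ label of the deposited annotation was given only to reads that carry the added guanosine. Of the 19 sequences with this label, 18 start at -1, and they hold 3894 of its 3895 reads. A read that starts at position 1, the first encoded base, carries no end label: 16 such members with 1661 reads were found, and all 16 matched the genome. Over all sequences of the libraries with at least 20 encoded bases from position 1, 3864 reads had the guanosine, 1649 had no base before position 1, 344 had T, 265 had A and 3 had C. The guanosine forms matched no genomic site, and C was the only base before position 1 with a genome match.

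Among reads with the guanosine or with no added base, the guanosine was present in 72.9, 66.0, 76.0 and 71.3% in activated replicates 1 to 4. In control replicates 1 to 4 it was present in 63.5, 65.8, 74.0 and 73.9%. The share was thus alike in libraries with few and with many 5′ reads, and control replicate 3 did not stand apart. Means were 71.6 ± 4.21% and 69.3 ± 5.45% (SD, n = 4; two-sided exact permutation p = 0.6). When both forms were summed, 5′ reads were at 38.1, 30.1, 26.3 and 16.7 RPM in activated replicates 1 to 4 and 62.4, 46.9, 176 and 26.4 RPM in control replicates 1 to 4. The label thus left out a part of the 5′ reads in every library without moving the ratio between groups, which was 0.357 (exact permutation p = 0.0857, adjusted p = 0.343). Control replicate 3 stood far above the other libraries in this sum too.

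For comparison, 1 extra base before a 5′ end sequence was counted in other tRNAs. Over all libraries it was found in 0.141% of the reads of tRNA-Gly-GCC, 0.103% of tRNA-Glu-CTC, 0.593% of tRNA-Asp-GTC and 0.0172% of tRNA-Lys-CTT. No such read was seen for tRNA-Val-CAC, where 1632 reads allow a share of up to 0.184%. The guanosine is part of the labelled end of tRNA-His, whereas the base counted in the other tRNAs lies ahead of their labelled end. A p value between these shares would carry no weight, and none is given. A second base, ahead of the guanosine, was found in 0 of 3866 reads of tRNA-His, which allows a share of up to 0.0776%. Such limits cover counting error only, and copies of the same molecule could not be told apart.

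A or T in place of the guanosine was seen in 13.7, 11.4, 10.98 and 10.3% of all 5′ reads of tRNA-His in activated replicates 1 to 4. In control replicates 1 to 4 the share was 6.40, 8.67, 8.30 and 17.5%. Every library had such reads, and the groups overlapped (exact permutation p = 0.6). In tRNA-Gly-GCC, A or T was found as an extra base ahead of the labelled end in 0.0358 to 0.0796% of reads. This is an unlike measure, as no base is normally present there, so no p value is given. The A and T forms matched no genomic site, were annotated as piRNA or not at all, and so lie outside the 278 members. Their commonest last position was 33, as for the guanosine form. This comparison was made after the data had been seen, and errors of the added base during library preparation were not tested.

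**Figure D2:**
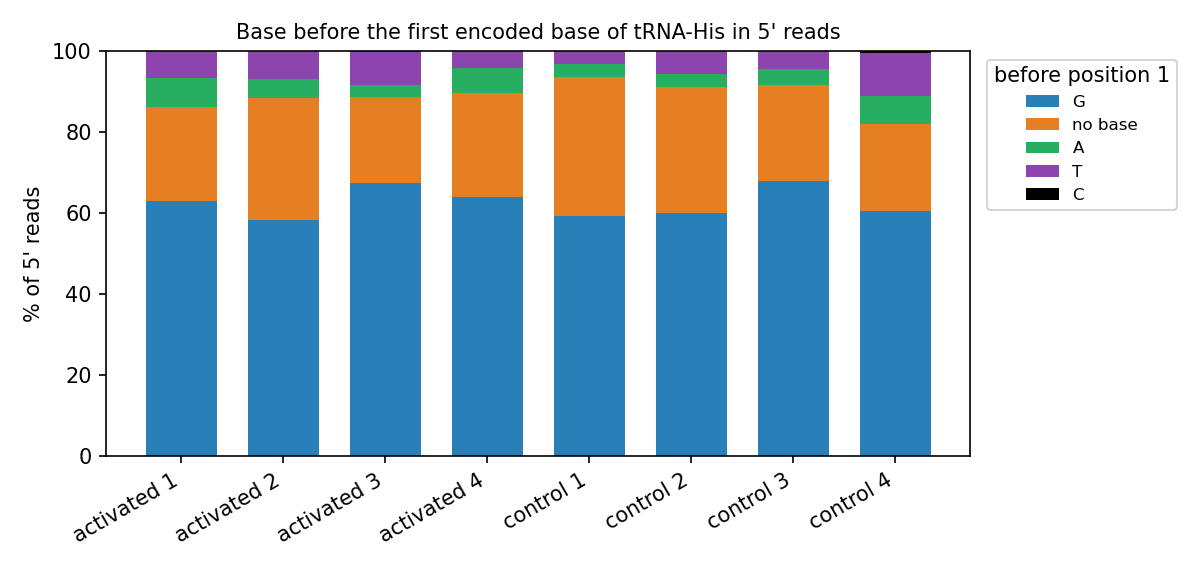
Share of tRNA-His 5′ reads (%) in each of the 8 libraries by the base found before position 1. The guanosine is the largest part in every library, followed by reads with no added base, and A and T together stay between 6.40 and 17.5%.

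Long fragments cut in the anticodon loop were the main 5′ form. The fragment from -1 to 33, which stops just before the anticodon, held 36.02% of the 5′ end reads with its 34 nt. It was at 11.5, 7.66, 6.51 and 2.98 RPM in activated replicates 1 to 4 and at 11.1, 13.2, 43.9 and 8.50 RPM in control replicates 1 to 4. Lengths of 35, 33, 32 and 31 nt followed with 16.7, 15.2, 13.1 and 7.47%, and 28 nt, with a last position of 27, formed a small separate peak of 4.18%. In reads that start at position 1 the fragment to 33 was again the commonest, with 43.1% of them, and the fragment to 30 came next with 17.5%, against 7.53% among reads with the guanosine. These shares are of pooled reads, to which libraries with more 5′ reads gave more.

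**Figure D3:**
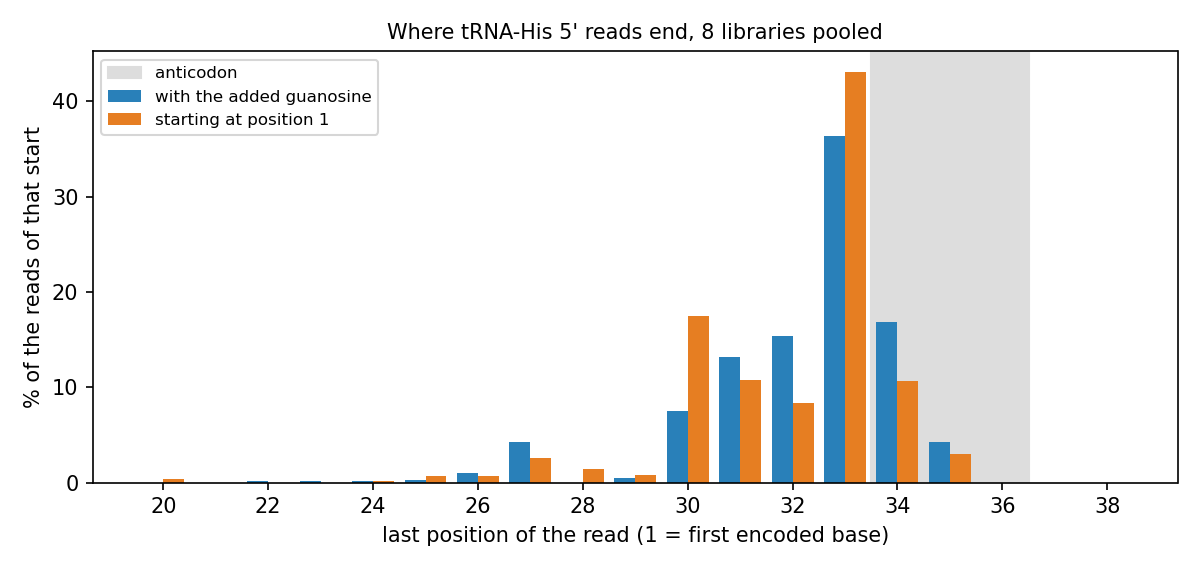
Last position of tRNA-His 5′ reads as a share (%) of all reads of the same start, 8 libraries pooled, for reads with the added guanosine and reads from position 1, with the anticodon shaded. Both forms peak at position 33, at 36.3 and 43.1%.

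Reads of 30 to 35 nt were 87.0, 87.0, 86.2 and 76.8% of the 5′ ends in activated replicates 1 to 4, and 89.9, 88.4, 92.1 and 89.4% in control replicates 1 to 4. Every activated library lay below every control library, with activated replicate 4 far below the rest. The means of 84.2 ± 4.97 and 90.0 ± 1.56% (SD, n = 4) differed with an exact permutation p of 0.0286, the smallest possible, and an adjusted p of 0.114 over 4 length bins. The share was also lower in the other nuclear tRNAs, at 51.0% in activated and 59.5% in control sperm (exact permutation p = 0.114), so the shift was not shown to be particular to tRNA-His. Without activated replicate 4, the difference for tRNA-His went from -5.72 to -3.24 percentage points. That library had only 112 5′ end reads. A bin of 32 to 36 nt gave an overlap of the groups and a p of 0.514 in the exact permutation test. Of the 10 lengths with reads in at least 4 libraries, 0 reached the smallest p, and the lowest adjusted p was 0.286.

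Other nuclear tRNAs had a smaller part of their 5′ end reads at 30 to 35 nt, 44.8 to 62.4% against 76.8 to 92.1% for tRNA-His (higher in 8 of 8 libraries, exact sign-flip p = 0.00781). The trait is not particular to tRNA-His: pooled over libraries the share was 89.04% for it, 90.0% for tRNA-Lys-CTT, 90.1% for tRNA-Glu-CTC and 86.2% for tRNA-Gly-GCC.

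**Figure D4:**
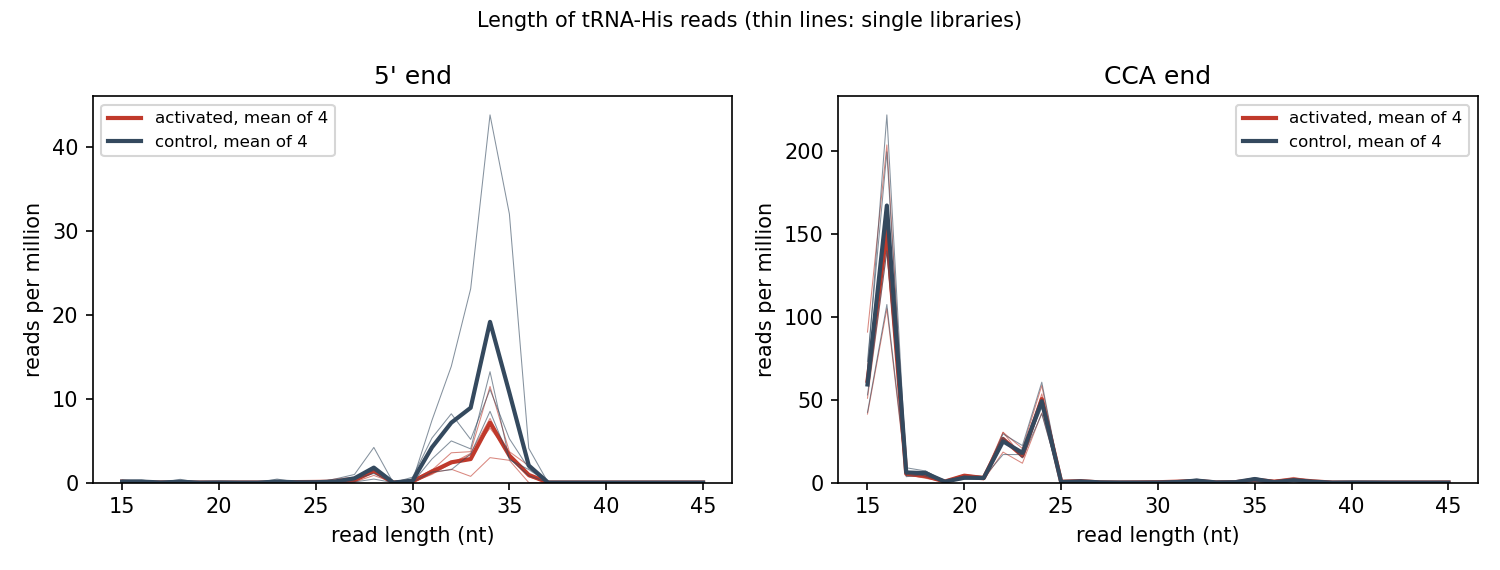
RPM of tRNA-His reads by length (nt) for 5′ ends and CCA ends, with thick lines for the mean of 4 libraries and thin lines for single libraries. The 5′ ends peak at 34 nt, where control replicate 3 reaches 43.9 RPM, and the CCA ends at 16 and 24 nt, where the groups lie on each other.

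CCA ends fell into a few starts. The 16 nt fragment from 60 to 75 covers the 3′ strands of the T stem and the acceptor stem. It alone held 46.5% of the reads of CCA ends, and its 15 nt neighbour from 61 held 17.9%. Its level was 202, 158, 104 and 139 RPM in activated replicates 1 to 4 and 198, 138, 220 and 107 RPM in control replicates 1 to 4. It ranged as widely within each group as between them (exact permutation p = 0.714). Reads under 15 nt were not kept, so shorter forms would be missed. Lengths of 15 and 16 nt held 58.5 to 71.7% of CCA ends of tRNA-His and 16.4 to 29.7% of those of other nuclear tRNAs. The share was higher for tRNA-His in 8 of 8 libraries. As these are its commonest lengths, a p value for them would carry little weight and none is given. The difference does not hold against each tRNA taken alone: these lengths held 94.5% in tRNA-Ile-AAT and 0.135% in tRNA-Asp-GTC.

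A second set of CCA ends started at the T loop. The fragment from 52, the last base of the 5′ strand of the T stem, held 14.7% with its 24 nt. Its neighbours from 54 and 53 held 7.66 and 5.04%. The 24 nt fragment was at 53.4, 47.3, 41.9 and 58.5 RPM in activated and 60.5, 45.1, 48.9 and 41.4 RPM in control replicates 1 to 4, the steadiest of the fragments printed above. Longer CCA ends, with starts from 31 to 46, were rare. These ends of 30 to 45 nt reached 3.83 to 10.4 RPM, and the commonest of them, from 41, had 229 reads. So long fragments carried most of the 5′ reads and few of the 3′ reads.

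The tail was whole in most reads. Over starts that leave room for each state at 15 nt or more, a full CCA was present in 93.7 to 96.6% of 1002 to 2577 reads per library, CC in 2.24 to 5.13%, a lone C in 0.747 to 1.22%, and no tail in 0 to 0.574%. The CCA share was 95.0 ± 1.20% in activated and 96.1 ± 0.321% in control sperm (SD, n = 4; exact permutation p = 0.143). The share of reads that end in CC differed between starts. Among reads from 54, CC without A was 4.40 to 11.2% of CC and CCA together, and among reads from 52, only 2 bases upstream, it was 0 to 1.28%. These 2 starts were picked because they differ, so a p value for them would carry no weight and none is given. As a share of all tail states in pooled reads, CC ranged from 0% (from 41) to 20.4% (from 38) over 14 starts, those up to 58 with at least 50 reads. Starts from 59 on were left out because their forms without a tail would be shorter than 15 nt, and among them is the commonest CC fragment, 60 to 74, with 1022 reads. Whether the A was lost or never added was not tested.

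No fragment of tRNA-His was called between groups. Of the 278 members, 13 had at least 50 counts in at least 4 libraries, and edgeR (quasi-likelihood, TMM) called 0 of them. A call needs an adjusted p below 0.05 and at least a doubling or halving, and TMM, trimmed mean of M values, scales the libraries to each other. Over all 12077 fragments tested it called 0.505%, or 61, which became 0 with library size scaling alone and in 6 of the 8 fits with a library left out. DESeq2 also called 0 of the 13, against 1.99% of all fragments, but gave no p value for the fragment from -1 to 34. At an unadjusted p under 0.05, 4 members were lower in activated sperm and 0 higher, where 4.12% of all fragments were lower. All 4 were 5′ fragments: from -1 to 31, 32 and 33, and from 1 to 33. This count of 4 was 0 without control replicate 3 and 0 without activated replicate 4. The fragment from -1 to 33 had a log2 fold change of -1.42 ± 0.61 (SE; edgeR adjusted p = 0.666), and that from 1 to 33 was at -1.37 ± 0.54 (edgeR adjusted p = 0.641). Those from -1 to 32 and from -1 to 34 were at -1.68 and -1.71. Much of these values came from control replicate 3. Without it, the fragments from -1 to 33, 32 and 34 were at -0.62, -0.57 and -0.15, and that from 1 to 33 at -0.83. Without activated replicate 4 those from -1 were at -1.17, -1.38 and -1.66, and that from 1 to 33 at -1.14. Of the 8 tested fragments of the 3′ side, those from 52, 53, 54, 60 and 61 to 75 and from 60 to 74 lay between -0.17 and 0.05, and the rarer ones from 59 and 58 to 75 were at -0.29 and -0.64. In 0 of the 13 did the groups separate completely with activated lower, as they did in 1.47% of all fragments. The other 265 members were too rare to test.

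Summed by end, 3 tRNA-His sums passed the same filter and edgeR called 0 of them, as it did of all 618 RNA species (0%). DESeq2 called 0 of the 3 and 0.485% of the species. The 5′ sum had a log2 fold change of -1.49 ± 0.59 (SE; edgeR adjusted p = 0.516, unadjusted under 0.05), or -0.58 without control replicate 3, and 7.44% of species were lower at an unadjusted p under 0.05. The sum without a label was at -0.57 ± 0.34 and the CCA sum at -0.07 ± 0.24, with adjusted p of 0.597 and 0.868 in edgeR.

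The lower 5′ mean was shared with other tRNAs. Of 34 other nuclear tRNA sums of the 5′ end that passed the filter, 33 had a log2 fold change below 0, with a median of -0.62, and 9 were lower at an unadjusted p under 0.05. Only 2 of the 34 lay below tRNA-His. The 52 other CCA sums had a median of -0.21, the 72 unlabelled ones -0.31 and the 21 of the 3′ end -0.22, and edgeR called 0 of all 179. The log2 ratio of tRNA-His 5′ ends to those of all other nuclear tRNAs was -10.59, -11.08, -10.78 and -11.57 in activated and -10.48, -10.87, -9.21 and -11.02 in control replicates 1 to 4. Apart from control replicate 3 the libraries were mixed between groups. The mean ratio was lower by 0.61 on the log2 scale in activated sperm (exact permutation p = 0.257), and by 0.22 without control replicate 3. A difference from the other tRNAs was not shown.

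**Figure D5:**
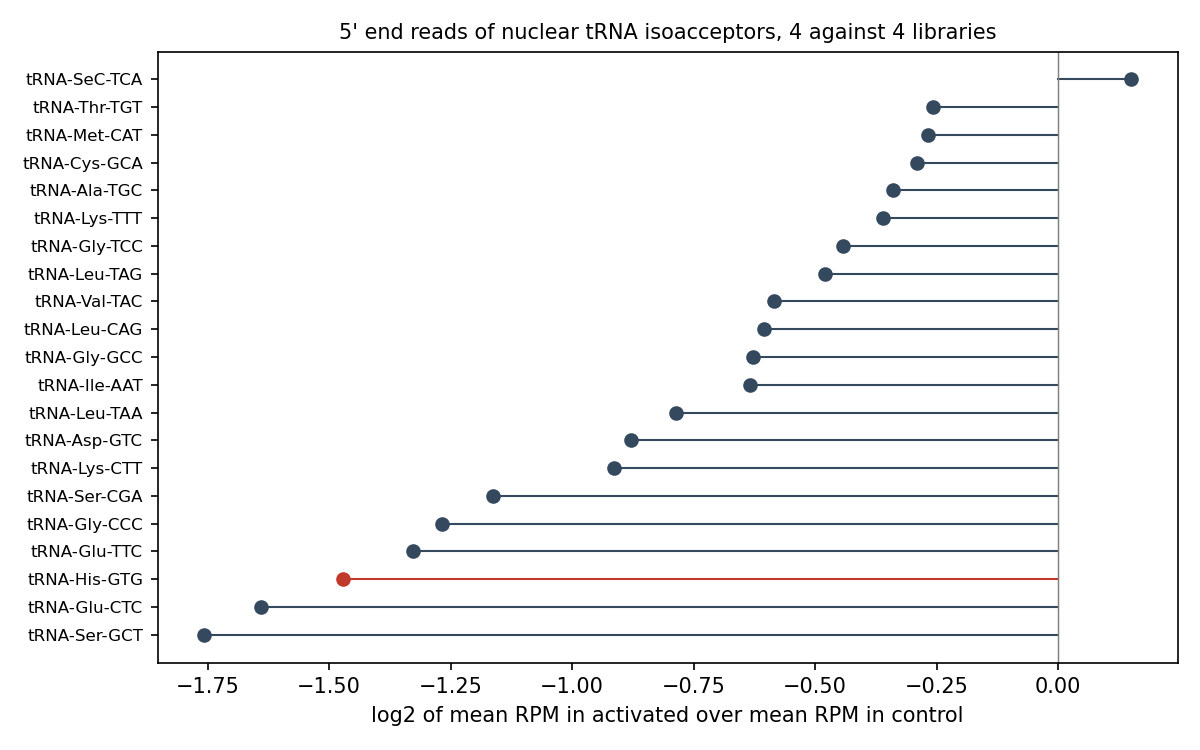
Log2 of the mean RPM of 5′ end reads in activated over control sperm, for tRNA-His and the 20 other nuclear isoacceptors with at least 50 RPM, 4 libraries a group. With a mean of 37.7 RPM, tRNA-His itself is below that minimum. tRNA-His lies at the lower end with tRNA-Ser-GCT and tRNA-Glu-CTC, and 19 of the 20 others lie below 0.

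By its profile over the 8 libraries, the 5′ sum of tRNA-His was most like those of tRNA-Gly-CCC, tRNA-Lys-CTT and tRNA-Glu-CTC. Their root mean square differences from it were 0.229, 0.309 and 0.31, on mean-centred log2(RPM + 1), where the profile of tRNA-His itself varied by 0.938. Control replicate 3 was the highest library in 16 of the 20 other isoacceptors. For tRNA-Gly-CCC the ratio of activated to control was 0.415 (exact permutation p = 0.114), for tRNA-Lys-CTT 0.531 (p = 0.143) and for tRNA-Glu-CTC 0.321 (p = 0.0571). In each of these 3, fragments of 30 to 35 nt made up 81.1 to 90.1% of the 5′ end reads, as they did in tRNA-His. This length did not go with the profile throughout. The next most alike, tRNA-Ser-CGA at 0.330, had 0% of its 5′ end reads at these lengths, and tRNA-Gly-GCC, with 86.2%, was at 0.711.

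Markers of the sample were read in the same libraries. The 7 miRNAs typical of sperm and testis summed to between 22282 and 33873 RPM in the activated group and between 18678 and 29933 RPM in the control group, with the highest mean for miR-34b over 8 libraries, though miR-34c was higher in 3 of them, and the lowest sum was that of control replicate 3. The 7 epithelial miRNAs, of which miR-200c had the highest mean, were at 3476, 1166, 1085 and 1196 RPM in activated and 1364, 1825, 2732 and 19420 RPM in control replicates 1 to 4. The 4 miRNAs of muscle and vessel, of which miR-143 had the highest mean, were at 138 to 392.5 RPM in 7 libraries and at 35290 RPM in control replicate 4. Erythrocyte miRNAs, led by miR-451a, were at 201, 47.9, 64.6 and 58.3 RPM in activated and 126, 383, 565 and 285 RPM in control replicates 1 to 4, highest in control replicate 3 (exact permutation p = 0.0571). The 5 leukocyte miRNAs, led by miR-142a, were at 432 to 979 and 394 to 879 RPM. All listed miRNAs had reads in some library. The part of such cells in the tRNA-His levels was not tested.

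The libraries also fell into a pair of sets by their share of mitochondrial rRNA. Activated replicates 1 and 4 and control replicates 2 and 4 had 0.123 to 0.182%, and the other 4 had 1.09 to 1.89%. Within the first set the ratio of 5′ ends was 0.776 and within the second 0.236, with 2 libraries a group in each. The ratio of CCA ends was 1.32 in the first set and 0.714 in the second, so that it turned direction between them. The CCA share was higher in activated sperm by 4.05 and 11.9 percentage points. These differences within sets were not tested.

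With 4 libraries a group, no exact permutation test between the groups could give a p below 0.0286, and control replicate 3 alone carried much of the 5′ difference. The 5′ ends of tRNA-His rest on few reads, 112 in activated replicate 4. Annotation needed a perfect match, so reads with a misread modified base would be kept without the tRNA-His name. The A and T forms also lacked that name, and their origin was not tested. Fragments whose ends resist ligation would not appear. Whether the guanosine was absent from the tRNA or lost from the fragment, for reads that start at position 1, was not tested. Genotype and activation of the neurons cannot be told apart, as every Cre carrier had the virus and CNO.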

How the data were processed

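The members and lists were chosen with earlier results of these data known. Sperm small RNA of 8 mice was made into libraries with a NEXTFLEX kit and sequenced by the authors, who trimmed reads, kept 15 to 45 nt with duplicates, and matched them without mismatch by Bowtie within SPORTS1.1 to mm10 and RNA databases. The authors deposited counts of each distinct sequence, and expected counts per RNA class, in which reads are divided among RNAs. Neither is normalized.

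Counts of tRNA-His rows were summed by end, genome match and length as RPM of the library total. Comparisons of the groups used exact permutation of all 70 assignments (two-sided), whose smallest p is 0.0286. Members were joined at overlaps of at least 15 nt to give positions. All fragments and all RNA species with at least 50 counts in at least 4 libraries were fitted with edgeR 4.0.16 and, as an alternative, DESeq2 1.42.0 with apeglm 1.24.0 in R 4.3.3, after a test on simulated data. The SE given with edgeR is the absolute log2 fold change divided by the square root of its quasi-likelihood F statistic. Names in an annotation were sorted, since their order differed between libraries. Named members are the 10 with the highest mean RPM, the top 3 of each end class and any called member. The 3′ ends without tail, at most 15 reads each, are given only as a sum. Alternatives were other denominators, scalings, filters, bins, log2(RPM + 1), a replicate block and leaving out each library. Python 3.11.15 with numpy, pandas and matplotlib was used. Sequences are those of the deposited files, and gene positions are from RefSeq (GRCm38.p6).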

Additional observations from a re-analysis of the deposited data

Results flagged for a closer look

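In groups of 4, a library was singled out where its gap to the nearest other was a larger part of the group's range than Dixon's 95% value allows. Of 68 groups examined, 12 had such a library. Chance gives about 1 in 20 for independent values with a normal spread. The measures overlap, as single 5′ fragments are part of the 5′ share, so the 12 cannot be set against that rate. Control replicate 3 was highest in the 5′ share of tRNA-His reads (20.8%, next 8.07%) and in the fragments from -1 to 33 (43.9 RPM, next 13.2), -1 to 34 (32.1 RPM, next 5.23) and -1 to 32 (23.1 RPM, next 5.15). Activated replicate 4 was lowest in the share of 30 to 35 nt among 5′ ends (76.8%, next 86.2) and in the fragment from -1 to 32 (0.744 RPM, next 3.32). Activated replicate 1 was highest in the fragment from 60 to 74 (13.4 RPM, next 7.03). Control replicate 2 was highest in 3′ ends without tail (0.519 RPM, next 0.242). Among marker sums, activated replicate 1 was highest in epithelial (3476 RPM) and erythrocyte miRNAs (201 RPM), and control replicate 4 in epithelial (19420 RPM) and muscle and vessel miRNAs (35290 RPM).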

How the results depend on the processing

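Over 13 results, 150 of 165 alternatives kept the direction and the side of the threshold, 13 turned a direction that was within the spread, and 2 moved a count or a call. Ratios of activated to control follow. Leaving out each library in turn gave 0.297 to 0.661 for 5′ ends, 0.754 to 1.37 for 3′ ends, 0.874 to 1.05 for CCA ends, 0.59 to 0.836 without a label and 0.769 to 0.972 in all. For CCA ends the ratio was 1.24 per nuclear tRNA read and 1.003 with genome-matched rows only, and for all reads 1.12 per nuclear tRNA read. For 3′ ends it was 0.899 with the TMM library size and 0.996 on the log2(RPM + 1) scale. The number of lengths at the smallest p was 0, and 0 to 3 with a library left out, reaching 3 without control replicate 4. The CCA share, 7.96 percentage points higher in activated sperm, ranged from 3.96 (without control replicate 3) to 9.98 with a library left out, and was 13.8 for reads of at least 17 nt, where the groups overlapped. Without control replicate 4 it passed the threshold (9.98, exact permutation, adjusted p = 0.0381). This share, the guanosine share and the sums with and without the guanosine were chosen after seeing the data. The cause of these changes was not tested. Fragments and species called stayed at 0 in all 15 alternatives each.

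Of the fitted log2 fold changes, those of 5′ fragments stayed below 0 in each alternative, but varied widely. With a library left out they ranged from -1.88 to -0.62 (-1 to 33), -1.95 to -0.57 (-1 to 32), -2.01 to -0.15 (-1 to 34), -1.68 to -0.83 (1 to 33) and -1.78 to -0.58 (5′ sum), always nearest 0 without control replicate 3. The shrunk values of DESeq2 lay between -0.20 and -0.11. The number of tRNA-His fragments lower at an unadjusted p under 0.05 was 4, and 0 to 5 with a library left out: 0 without control replicate 3 or activated replicate 4, 1 without activated replicate 2 or 3. It was 1 with edgeR on library size only, where 334 of all 12077 fragments were lower. With the replicate block it was 2, where 236 of all 12077 were lower. It was 10 of 36 tested with at least 10 counts, against 1757 of all 56991. With at least 1 count it was 10 of 116, against 6502 of all 387985. Those near 0 changed sign: the fragment from 52 was at -0.0341 with at least 10 counts, -0.0103 with at least 1 count and -0.0235 with the replicate block, that from 54 at -0.0308 and -0.0119 with these count minimums, and that from 61 at -0.0467 with the block. With a library left out the CCA and tail fragments ranged from -0.11 to 0.13 (from 52), -0.14 to 0.23 (54), -0.31 to 0.23 (61), -0.40 to 0.0451 (60), -0.36 to 0.00829 (53), -0.53 to 0.0145 (60 to 74) and -0.20 to 0.0391 (CCA sum).

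Same-numbered libraries did not pair: their deviations correlated at -0.63, -0.549, 0.589 and 0.515, and no activated library was most like the control of its own number. With the replicate block 0 fragments of tRNA-His were called, as without it, while over all fragments the calls went from 61 to 0. Exact sign flips of 4 pairs cannot give a p below 0.125. Rows with a genome match could not be used for 5′ ends, their lengths or bins, as none match. Depth limits the 5′ ends, at 112 to 1217 reads a library, more than the CCA ends, at 3023 to 7088.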
